A study of Mus musculus with 9 samples.

Results

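The genes described here are 10 that encode ion channels, channel subunits, a sodium pump subunit and a water channel that are known from salivary ducts or from the absorptive tubules of the kidney: Scnn1a, Scnn1b, Scnn1g, Cftr, Fxyd2, Kcnq1, Kcne1, Kcns3, Kcnk5 and Aqp2. They are 10 of the 54532 gene identifiers counted. The 10 were chosen by name, as channel genes whose level shifted with day in these same libraries, so their differences between days are given as a description. The number of them called in the fit over all genes is printed once, beside the share of all genes called, and is not used as a test of them. Each was matched to the table by a single Ensembl identifier, and all 10 passed the filter on low counts.

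The samples were submandibular salivary glands of wild-type (WT) mice (Mus musculus) that had received 10 Gy of radiation, taken 30, 60 or 90 days later, with 3 libraries for each day. RNA came from tissue sections of the gland, so each library mixes acinar, ductal, stromal and blood cells. All 9 samples were irradiated, and glands without irradiation were not analysed here, so time after irradiation and the age of the mice cannot be told apart. The labels give no age, sex or litter and do not say that the 3 samples of a day came from separate mice, so every spread and p-value below refers to these libraries alone.

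Saliva is formed in the acini as a fluid rich in sodium chloride, and the striated and excretory ducts then take sodium and chloride back while they secrete potassium and bicarbonate. The epithelial sodium channel ENaC, assembled from an alpha, a beta and a gamma subunit (Scnn1a, Scnn1b, Scnn1g), and the chloride channel Cftr form the apical route of this uptake, and the Na,K-ATPase drives it from the basolateral side. Potassium channels set the membrane voltage of duct and acinar cells and provide a path for potassium. In the mouse submandibular gland a further segment, the granular convoluted tubule, stores growth factors and kallikreins.

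The fewest counts in a library were 14 for Aqp2, 16 for Kcns3 and 18 for Kcne1, and the other 7 genes had at least 185 in every library. Library totals ran from 16541396 to 17179500 counts at 30 days, from 21722141 to 24880803 at 60 days and from 20410818 to 26065856 at 90 days. Levels are given as CPM, a gene's counts scaled to library size with a TMM factor, which corrects for a few genes taking a large share of a library. Among marker genes of other cells, the ductal keratins Krt7 (115, 114 and 121 CPM on average at 30, 60 and 90 days) and Krt8 (186, 195 and 207 CPM) and the acinar factor Bhlha15 (365, 510 and 297 CPM) were well detected. A list of 7 sublingual and mucous markers summed to 152 to 686, 462 to 1144 and 361 to 717 CPM on the 3 days. In this list Smgc made up nearly all (416, 907 and 547 CPM on average), Muc19 stayed at or below 0.746 CPM on average and Tff2 had 0 counts. The sum thus follows Smgc, and no amount of sublingual tissue is read from it.

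The stretches just upstream of the start sites are shown for 5 of the genes, because Scnn1b and Scnn1g are neighbours on chromosome 7 and were both higher later, Kcns3 and Kcnk5 had the largest increases of the 10, and Aqp2 had the largest decrease. They were taken from RefSeq (GRCm38.p6), which gave an entry for 6 of the 10 (Cftr, Scnn1b, Scnn1g, Kcns3 with 2 starts, Kcnk5 and Aqp2). Scnn1a, Fxyd2, Kcnq1 and Kcne1 had none. Bases of a window that lie in an annotated exon were left out. The windows are Scnn1b chr7:121864788-121865037 (plus strand), Scnn1g chr7:121734229-121734478 (plus), Kcns3 chr12:11150374-11150623 (minus, upstream of the second start), Kcnk5 chr14:20181810-20182032 (minus) and Aqp2 chr15:99578806-99579054 (plus), each written 5′ to 3′ on the gene's strand with every match to a searched motif in capitals.
Scnn1b: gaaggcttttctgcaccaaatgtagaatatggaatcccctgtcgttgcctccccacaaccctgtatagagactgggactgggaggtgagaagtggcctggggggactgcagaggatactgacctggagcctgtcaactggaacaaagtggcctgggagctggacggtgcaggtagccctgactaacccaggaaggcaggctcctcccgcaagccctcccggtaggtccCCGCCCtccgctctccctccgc
Scnn1g: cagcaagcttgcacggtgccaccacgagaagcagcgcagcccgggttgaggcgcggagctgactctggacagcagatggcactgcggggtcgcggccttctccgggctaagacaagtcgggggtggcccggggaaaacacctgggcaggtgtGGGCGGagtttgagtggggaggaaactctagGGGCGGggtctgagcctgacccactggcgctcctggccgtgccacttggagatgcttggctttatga
Kcns3: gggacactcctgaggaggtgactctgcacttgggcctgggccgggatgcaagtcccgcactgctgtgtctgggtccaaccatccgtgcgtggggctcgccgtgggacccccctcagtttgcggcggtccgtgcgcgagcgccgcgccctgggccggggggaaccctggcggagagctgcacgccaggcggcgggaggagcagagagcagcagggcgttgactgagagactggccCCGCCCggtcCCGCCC
Kcnk5: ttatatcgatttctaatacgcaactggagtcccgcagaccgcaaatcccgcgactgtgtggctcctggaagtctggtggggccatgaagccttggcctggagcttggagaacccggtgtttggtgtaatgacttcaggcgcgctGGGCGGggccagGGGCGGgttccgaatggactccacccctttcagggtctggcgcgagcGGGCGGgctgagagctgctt
Aqp2: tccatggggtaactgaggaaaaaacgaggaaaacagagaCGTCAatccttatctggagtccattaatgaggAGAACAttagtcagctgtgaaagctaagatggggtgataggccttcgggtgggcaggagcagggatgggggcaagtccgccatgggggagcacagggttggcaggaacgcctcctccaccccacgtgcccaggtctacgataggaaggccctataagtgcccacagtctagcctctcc

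A total of 4 motifs were searched on both strands in the 250 bases before each start: the steroid receptor half-site AGAACA, the cAMP response element half-site TGACG, the AP-1 site TGANTCA and the GC box GGGCGG. The GC box, a common element of promoters (32.7% of 32851 RefSeq windows of the same length), was matched once in Scnn1b, 22 bases before the start. Scnn1g held it 98 and 67 bases before the start, Kcnk5 106, 94 and 47 bases before it, and the Kcns3 window shown 16 and 6 bases before it. Cftr held 6 matches. The full 250 bases before the other Kcns3 start held 1, 49 bases before it, within the part left out because of an annotated exon. The Aqp2 window held no GC box, but an AGAACA 179 bases before the start (a motif in 16.1% of windows) and a CGTCA, the reverse complement of TGACG, 211 bases before it (17.8%). No window of the 6 genes held TGANTCA (6.75% of windows). Matches do not overlap in the windows shown, and a match describes the letters only.

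Among the ENaC subunits, the alpha subunit overlapped between days while the beta subunit was higher from 60 days on. The gamma subunit was higher at 90 than at 30 days, and its separation of 30 from 60 days depended on the scaling. Scnn1a (ENSMUSG00000030340, chromosome 6, 125320659 to 125344943, plus strand, GRCm38), the pore subunit that the channel cannot do without, measured 77.7, 82.0 and 80.1 CPM in the 3 libraries at 30 days, 68.3, 83.3 and 76.1 CPM at 60 days and 87.7, 82.6 and 81.7 CPM at 90 days. Its groups overlapped in every pair of days, and from 30 to 90 days the log2 fold change came to 0.07 ± 0.10 (SE).

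Scnn1b (ENSMUSG00000030873, chromosome 7, 121865038 to 121918514, plus strand), the beta subunit, needed for full channel activity, measured 52.8, 68.4 and 75.7 CPM at 30 days, 95.9, 95.9 and 89.5 CPM at 60 days and 96.6, 96.6 and 93.0 CPM at 90 days. Every library of the later days lay above every 30-day library, and the 30-day libraries had the widest spread. The log2 fold change was 0.51 ± 0.12 (SE) from 30 to 60 days, 0.03 ± 0.11 from 60 to 90 days and 0.54 ± 0.12 from 30 to 90 days, a 1.45-fold higher level at 90 days.

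Scnn1g (ENSMUSG00000000216, chromosome 7, 121734479 to 121768475, plus strand), the gamma subunit, measured 17.6, 20.1 and 21.1 CPM at 30 days, 21.9, 25.4 and 26.8 CPM at 60 days and 24.4, 29.6 and 27.7 CPM at 90 days. With TMM scaling its 30-day libraries were the lowest of the 9, by a narrow margin, and the 60-day and 90-day libraries overlapped. With library size scaling alone the 30-day and 60-day libraries overlapped as well (18.6 ± 3.6 and 24.2 ± 4.8 CPM, mean and SD). The log2 fold change was 0.33 ± 0.12 from 30 to 60 days and 0.47 ± 0.12 from 30 to 90 days, a 1.39-fold higher level. Scnn1g ends 96563 bases before Scnn1b begins, on the same strand.

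The make-up of the subunit RNAs therefore differed between days. Per exon length, the ratio of Scnn1b to Scnn1a was 1.07, 1.31 and 1.48 in the 30-day libraries, 2.20, 1.81 and 1.85 at 60 days and 1.73, 1.84 and 1.79 at 90 days, with no overlap between 30 days and either later day. The ratio of Scnn1g to Scnn1a was 0.339 ± 0.025 (SD, n = 3) at 30 days, 0.450 ± 0.034 at 60 days and 0.450 ± 0.058 at 90 days. Scnn1g to Scnn1b, in contrast, was 0.266 ± 0.025, 0.232 ± 0.031 and 0.252 ± 0.026, within the spread of the libraries. A ratio within a library does not depend on how libraries are scaled. Since RNA was taken from whole sections, fewer cells of a type and less RNA per cell cannot be told apart for any gene here.

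**Figure D1:**
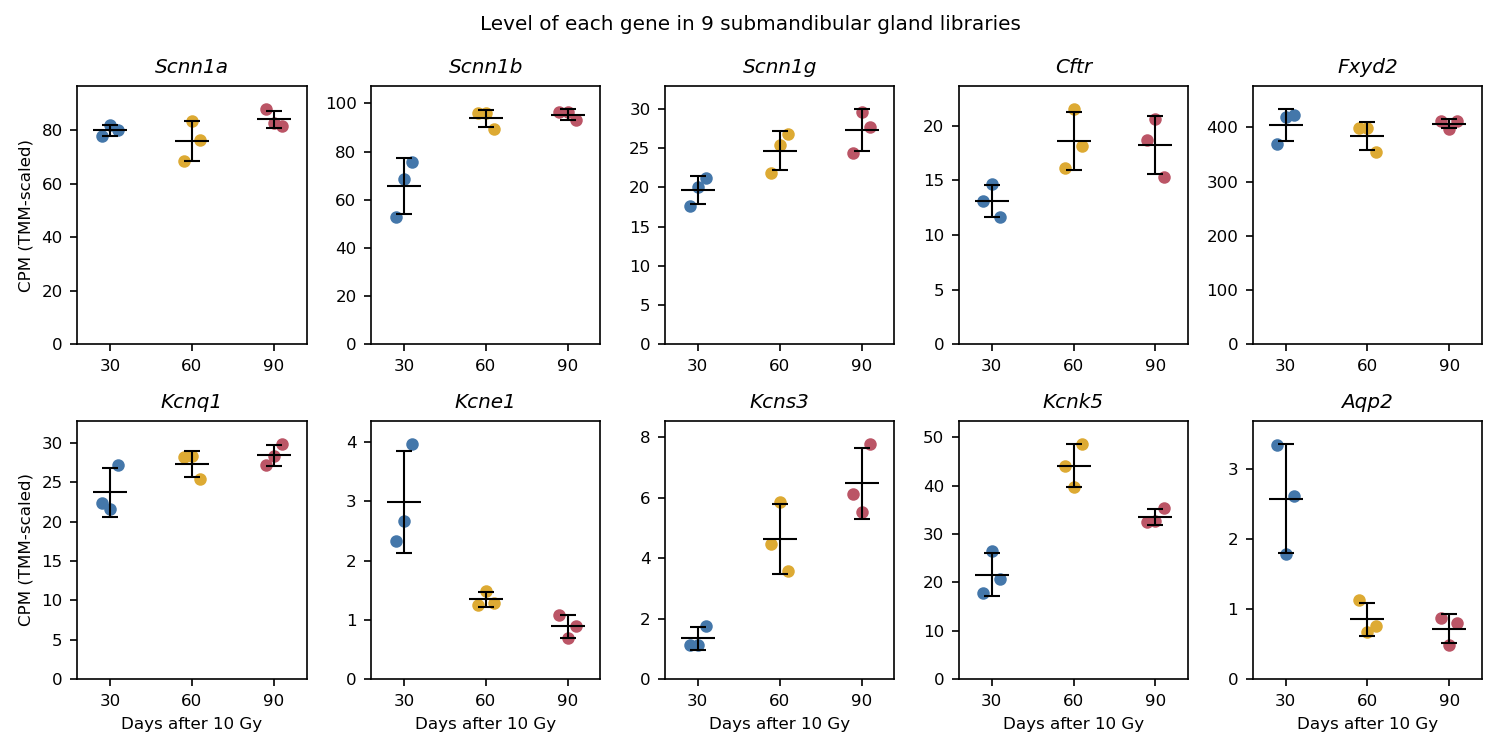
Level of the 10 genes in each library (points, y axis in CPM after TMM scaling, from 0) by days after 10 Gy (x axis), with mean and SD of 3 libraries (black). Scnn1b, Scnn1g, Cftr, Kcns3 and Kcnk5 are higher and Kcne1 and Aqp2 lower in every 60-day and 90-day library than in every 30-day library, while Scnn1a, Kcnq1 and Fxyd2 overlap.

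Cftr (ENSMUSG00000041301, chromosome 6, 18170687 to 18322768, plus strand), the cAMP-gated chloride channel of the duct's apical membrane, measured 13.1, 14.6 and 11.7 CPM at 30 days, 16.1, 21.5 and 18.2 CPM at 60 days and 18.7, 20.6 and 15.3 CPM at 90 days. No later library reached down to the 30-day range, although the highest 30-day library (14.6 CPM) lay close to the lowest 90-day library (15.3 CPM). The log2 fold change was 0.50 ± 0.15 from 30 to 60 days and 0.48 ± 0.15 from 30 to 90 days (1.39-fold), a step of the same size as that of Scnn1b with a larger error.

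Fxyd2 (ENSMUSG00000059412, chromosome 9, 45399669 to 45410278, plus strand), a small membrane protein known as the gamma subunit that tunes the Na,K-ATPase in kidney tubules, was the most abundant of the 10, also per exon length. It measured 370, 419 and 423 CPM at 30 days, 400, 398 and 355 CPM at 60 days and 411, 397 and 412 CPM at 90 days, and the groups overlapped throughout. From 30 to 90 days its log2 fold change came to 0.01 ± 0.11, and it took the other sign in 3 of 16 alternative analyses.

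The potassium channel genes went separate ways. Kcnq1 (ENSMUSG00000009545, chromosome 7, 143106362 to 143427042, plus strand), the pore of a voltage-gated channel that becomes a constitutively open or a slowly opening channel depending on its Kcne partner, measured 22.4, 21.6 and 27.3 CPM at 30 days, 28.2, 28.4 and 25.5 CPM at 60 days and 27.2, 28.4 and 29.8 CPM at 90 days. The third 30-day library lay within the range of the later days, and the log2 fold change between 30 and 90 days came to 0.26 ± 0.12.

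Kcne1 (ENSMUSG00000039639, chromosome 16, 92345982 to 92359468, minus strand), the accessory subunit that slows the opening of Kcnq1 channels, measured 2.34, 2.67 and 3.96 CPM at 30 days, 1.25, 1.49 and 1.29 CPM at 60 days and 1.08, 0.687 and 0.903 CPM at 90 days. With TMM scaling the 3 days did not overlap, each lower than the one before. With library size scaling alone the 60-day and 90-day libraries overlapped (1.31 ± 0.13 and 0.97 ± 0.22 CPM, mean and SD). These levels rest on 18 to 67 counts a library, and the log2 fold change was -1.16 ± 0.33 from 30 to 60 days, -0.59 ± 0.35 from 60 to 90 days and -1.75 ± 0.34 from 30 to 90 days, or 0.298 of the 30-day level. Per exon length, Kcne1 stood to Kcnq1 as 0.133, 0.158 and 0.185 in the 30-day libraries, as 0.0566, 0.0669 and 0.0646 at 60 days and as 0.0505, 0.0308 and 0.0385 at 90 days.

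Kcns3 (ENSMUSG00000043673, chromosome 12, 11090202 to 11151056, minus strand) encodes an electrically silent subunit that forms no channel alone and modifies other voltage-gated potassium channels. It measured 1.13, 1.13 and 1.77 CPM at 30 days, 4.49, 5.88 and 3.58 CPM at 60 days and 6.13, 5.53 and 7.77 CPM at 90 days, or 16 to 30 counts a library at 30 days against 86 to 182 later. The lowest 60-day library was above the highest 30-day library, and the 60-day and 90-day libraries overlapped. The log2 fold change was 1.77 ± 0.28 from 30 to 60 days, 0.47 ± 0.24 from 60 to 90 days and 2.25 ± 0.28 from 30 to 90 days, a 4.76-fold higher level, which ranked 42 among 15224 genes from the highest change. Its ratio to Kcnq1 per exon length was 0.0725 ± 0.0102 (SD, n = 3) at 30 days, 0.219 ± 0.044 at 60 days and 0.294 ± 0.042 at 90 days.

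Kcnk5 (ENSMUSG00000023243, chromosome 14, 20140057 to 20181809, minus strand), a background potassium channel opened by alkaline pH, was the gene with a peak at 60 days. It measured 17.8, 26.4 and 20.6 CPM at 30 days, 44.1, 39.6 and 48.5 CPM at 60 days and 32.5, 32.8 and 35.5 CPM at 90 days. With TMM scaling the 3 days did not overlap, with 60 days the highest and 90 days between. With library size scaling alone the 60-day and 90-day libraries overlapped (43.35 ± 9.3 and 36.82 ± 2.1 CPM, mean and SD). The log2 fold change was 1.03 ± 0.13 from 30 to 60 days (2.04-fold), -0.40 ± 0.13 from 60 to 90 days and 0.63 ± 0.13 from 30 to 90 days. Relative to Kcnk1, another background potassium channel, the ratio per exon length was 0.254 ± 0.051 at 30 days, 0.646 ± 0.037 at 60 days and 0.480 ± 0.027 at 90 days.

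Aqp2 (ENSMUSG00000023013, chromosome 15, 99579055 to 99584547, plus strand), best known as the vasopressin-regulated water channel of the kidney collecting duct, was the other gene that was lower later. It measured 3.33, 1.78 and 2.60 CPM at 30 days, 1.12, 0.678 and 0.750 CPM at 60 days and 0.876, 0.481 and 0.803 CPM at 90 days. The raw counts were 47, 30 and 44 at 30 days, 26, 15 and 18 at 60 days and 26, 14 and 16 at 90 days, so its errors are the largest of the 10: the log2 fold change was -1.58 ± 0.40 from 30 to 60 days and -1.83 ± 0.40 from 30 to 90 days, or 0.281 of the 30-day level. Aqp5, the water channel of acinar cells, lies 6235 bases downstream on the same strand and was far more abundant, at 478, 346 and 322 CPM on average. The ratio of Aqp2 to Aqp5 per exon length was 0.00977 ± 0.00239 at 30 days, 0.00444 ± 0.00061 at 60 days and 0.00405 ± 0.00101 at 90 days, so Aqp2 was lower relative to its neighbour too.

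**Figure D2:**
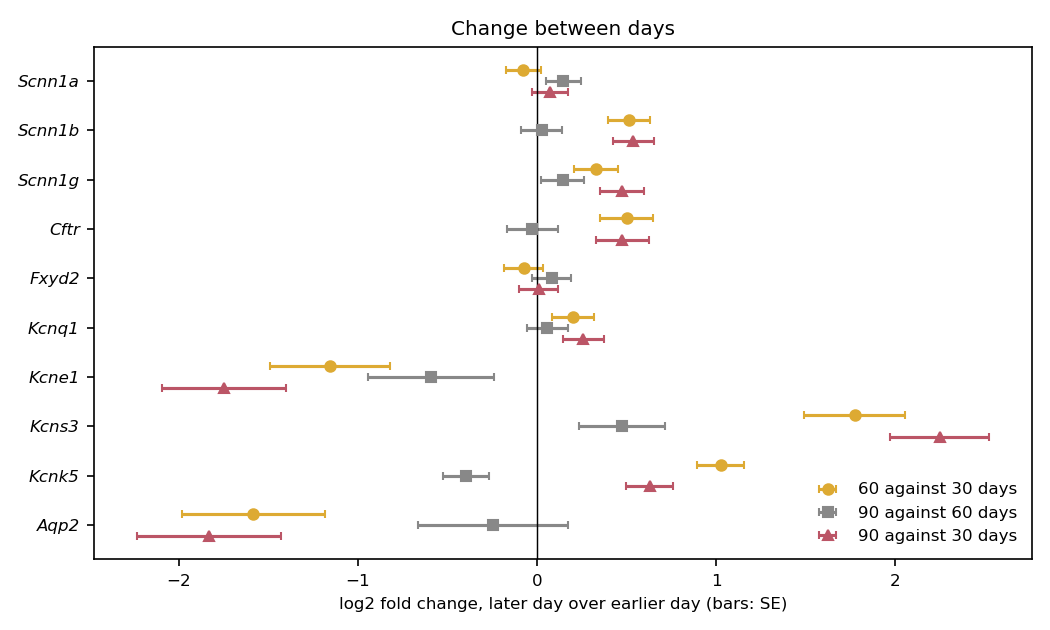
Log2 fold change of the 10 genes (x axis, later day over earlier day) with SE from the fit of all 9 libraries, for 60 against 30 days (circles), 90 against 60 days (squares) and 90 against 30 days (triangles). Kcns3 lies farthest to the right (2.25 from 30 to 90 days), Aqp2 and Kcne1 farthest to the left (-1.83 and -1.75), and the squares run from -0.59 (Kcne1) to 0.47 (Kcns3).

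The size of the change between 30 and 60 days exceeded that between 60 and 90 days for 8 of the 10 genes, the exceptions being Scnn1a and Fxyd2. From 30 to 60 days, 5 genes were higher without overlap (Scnn1b, Scnn1g, Cftr, Kcns3, Kcnk5), 2 were lower (Kcne1, Aqp2) and 3 overlapped, where 16.9% of all genes tested had groups that did not overlap. The same 5 and 2 genes held these places from 30 to 90 days, where 23.2% of all genes did not overlap, and both comparisons share the 30-day libraries. From 60 to 90 days, 2 genes (Kcne1, Kcnk5) were lower without overlap and 8 overlapped, where 15.9% of all genes did not overlap. All these overlaps are of TMM-scaled CPM. With library size scaling alone Scnn1g overlapped between 30 and 60 days, and Kcne1 and Kcnk5 between 60 and 90 days. Kcns3, Kcnq1 and Fxyd2 were then higher at 90 than at 60 days without overlap, and Kcnq1 was also higher than at 30 days.

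By edgeR's quasi-likelihood test over 15224 genes (adjusted p below 0.05), 3 of the 10 were called from 30 to 60 days, all higher (Scnn1b, Kcns3, Kcnk5), where 1.56% of all genes tested were called and 1.14% were called higher. None of the 10 was called from 60 to 90 days, in this test or in any of 16 alternatives, where 0.256% of all genes were called. From 30 to 90 days, 6 were called, 4 higher (Scnn1b, Scnn1g, Kcns3, Kcnk5) and 2 lower (Kcne1, Aqp2), where 3.57% of all genes were called, 1.81% higher and 1.77% lower. In the test for any difference among the 3 days 5 were called (these without Scnn1g), where 3.29% of all genes were. With library size scaling alone the calls from 30 to 90 days were 406 higher and 34 lower, beside 275 and 269. Since the rule that chose the genes used these contrasts, nothing is read from the counts. Without the first 30-day library 2 of the 10 were called from 30 to 90 days, Kcne1 and Kcns3. From 30 to 60 days Scnn1b kept its call in 10 of 16 alternatives, not with library size alone, and Kcns3 and Kcnk5 in 16. From 30 to 90 days Scnn1g kept its call in 11, Scnn1b, Kcnk5 and Aqp2 in 14, and Kcne1 and Kcns3 in 16. The median log2 fold change of the 10 was 0.27, 0.04 and 0.37 for 60 against 30, 90 against 60 and 90 against 30 days, beside -0.002, 0.001 and 0.014 over all genes tested. The same rule shaped the median of the 10, so nothing is read from it either. With scaling by library size alone the median of all genes was 0.05, 0.18 and 0.24, and from 30 to 90 days Scnn1a, Kcnq1 and Fxyd2 then had log2 fold changes of 0.30, 0.48 and 0.23.

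Compared per exon length, the levels spanned a wide range. At 30 days the order was Fxyd2 (100.9 CPM per kb of exon), Scnn1b (24.9), Scnn1a (19.3), Scnn1g (6.56), Kcnk5 (6.35), Kcnq1 (5.80), Aqp2 (1.81), Cftr (1.69), Kcne1 (0.931) and Kcns3 (0.425). Of neighbours in this order, Scnn1g, Kcnk5 and Kcnq1 did not differ beyond their spread (SD 0.597, 1.29 and 0.754), nor did Aqp2 and Cftr (SD 0.546 and 0.191). At 90 days Kcns3 (2.05 ± 0.37) had moved up beside Cftr (2.34 ± 0.34), from which it did not differ beyond the spread, and Aqp2 (0.507 ± 0.148) and Kcne1 (0.277 ± 0.061) were the lowest. Kcnk5 (9.86 ± 0.49) then stood beside Scnn1g (9.11 ± 0.89).

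**Figure D3:**
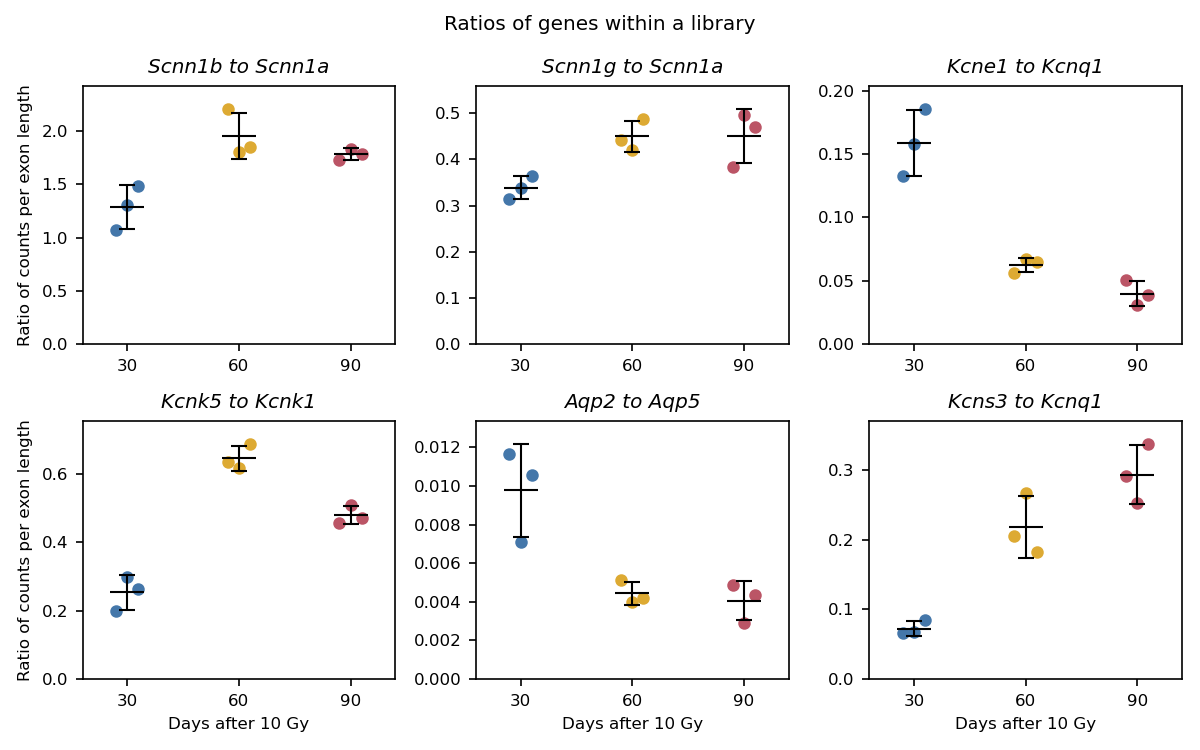
Ratio of counts per exon length of a pair of genes within each library (points, y axis from 0) by days after 10 Gy (x axis), with mean and SD of 3 libraries (black). Scnn1b and Scnn1g relative to Scnn1a and Kcns3 relative to Kcnq1 are higher at 60 and 90 days than at 30 days, Kcnk5 against Kcnk1 is highest at 60 days, and Kcne1 against Kcnq1 and Aqp2 against Aqp5 are lower at 60 and 90 days than at 30 days.

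Genes that overlap or adjoin these loci bear on what the counts can hold, since the use of strand in the counting is not given in the sources used here. Scnn1b lies across from Cog7 on the opposite strand with 0 shared exon bases, and Cog7, a Golgi trafficking gene, was at 30.7, 27.2 and 25.0 CPM on average, lower at the days when Scnn1b was higher. Kcnq1 shares 121 of its 4093 exon bases with the antisense transcript Kcnq1ot1 (43 to 116 counts a library, 3.80, 3.08 and 3.93 CPM on average). Cftr shares 129 of 7765 exon bases with the antisense gene Gm15592, which had 0 to 3 counts. Reads from such an overlap cannot be assigned to a strand here.

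For each gene the tested genes with the most similar pattern were sought by Pearson's r of log2 CPM over the 9 libraries, among 13018 genes with a mean of at least 1 CPM. The 9 points share the 3 days and the scaling of their libraries, so r describes these libraries only and has no p. The closest gene was Ywhag for Scnn1b (r = 0.984), Snhg11 for Kcns3 (0.983), Purb for Kcnk5 (0.981), Pon1 for Scnn1g (0.973), Psg17 for Aqp2 (0.973) and the long non-coding RNA BC049987 for Kcne1 (0.969). Cftr was closest to Stk24 (0.961), Scnn1a to Egln3 (0.959), Fxyd2 to Snhg20 (0.952) and Kcnq1 to Polr2k (0.950). Aqp5 was the second closest gene to Aqp2 (0.969), and Tspan8 the second closest to Kcns3 (0.980).

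The genes known to regulate ENaC were examined as a list of 28, of which 24 were tested. From 30 to 60 days 1 was called, higher (Sgk1). From 30 to 90 days 4 were called, Sgk1 and Furin higher and Stk39 and Usp2 lower. The list's median log2 fold change was 0.05 and 0.02 in these comparisons, close to that of all genes. DESeq2 called these and Tmprss2, a protease named here after its call was seen, in both comparisons, and Furin also from 30 to 60 days.

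Sgk1, the aldosterone-induced kinase that keeps ENaC at the cell surface, measured 64.8, 69.7 and 74.2 CPM at 30 days, 109, 123 and 126 CPM at 60 days and 90.8, 119 and 94.7 CPM at 90 days. All 6 later libraries lay above the 30-day libraries. It rose by 0.78 ± 0.12 on the log2 scale from 30 to 60 days (adjusted p = 0.00139, at most 0.0158 over 16 alternatives) and by 0.55 ± 0.12 from 30 to 90 days (adjusted p = 0.0113). The latter call was lost without 30-day library 1, 30-day library 2 or 90-day library 2 (adjusted p up to 0.0982). Nr3c2, the mineralocorticoid receptor that induces Sgk1, was at 13.7, 19.0 and 15.8 CPM on average and was not called (adjusted p = 0.175 from 30 to 60 days, 0.556 from 30 to 90 days). Hsd11b2, the enzyme that shields this receptor from glucocorticoids, did not pass the filter on low counts.

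Furin, the protease that cleaves the alpha and gamma subunits and so activates ENaC, measured 72.7, 78.5 and 77.6 CPM at 30 days, 99.95, 99.7 and 94.6 CPM at 60 days and 114, 111 and 98.4 CPM at 90 days. It rose by 0.50 ± 0.10 from 30 to 90 days (adjusted p = 0.00664), and every alternative kept the call (adjusted p up to 0.0455). Prss8, another activating protease, was at 77.5, 63.3 and 60.6 CPM on average, and its log2 fold change of -0.35 ± 0.11 from 30 to 90 days was not called (adjusted p = 0.0940). Nedd4l, the ubiquitin ligase that removes ENaC from the membrane, was at 27.2, 26.5 and 23.9 CPM on average and was not called (adjusted p = 0.473).

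The pair that fell comprised a kinase and a deubiquitinase. Stk39, the kinase SPAK of chloride cotransporters, fell from 218 through 187 to 148 CPM on average (log2 fold change -0.56 ± 0.11, adjusted p = 0.00884). Usp2, which deubiquitinates ENaC, measured 103, 57.7 and 68.6 CPM at 30 days and 41.9, 40.0 and 26.98 CPM at 90 days (log2 fold change -1.07 ± 0.22, adjusted p = 0.0239). The call of Stk39 was lost with library size scaling alone (adjusted p = 0.216) and without 30-day library 1 or 90-day library 2. That of Usp2 was lost without 60-day library 1, 60-day library 3 or 90-day library 2 and in the fit of the 6 libraries alone (adjusted p up to 0.111).

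Partners of Cftr and the duct's chloride, bicarbonate and sodium exchangers formed a list of 26, of which 20 were tested. From 30 to 60 days 1 was called, Snap23, and from 30 to 90 days 2, Snap23 higher and Ano1 lower. The list's medians were 0.08 and -0.01. Snap23, a membrane fusion protein, rose from 24.7 to 35.5 and 36.0 CPM on average (log2 fold change 0.52 ± 0.11, adjusted p = 0.0227, and 0.54 ± 0.11, adjusted p = 0.0110), with the calls lost in 4 of 16 alternatives each. Both were lost without 30-day library 1 or 2, the earlier one also without 60-day library 2 and with library size scaling alone, and the later one without 90-day library 2 or 3. Ano1, the calcium-gated chloride channel that drives acinar secretion, fell from 149 through 140 to 108 CPM on average (log2 fold change -0.47 ± 0.11, adjusted p = 0.0245), and library size scaling alone ended the call (adjusted p = 0.370), as did leaving out 30-day library 1 or 2 or 90-day library 1 or 2. Slc9a3r1, a scaffold that holds Cftr at the membrane, was at 80.9, 79.0 and 80.5 CPM on average and was not called (adjusted p = 0.985 from 30 to 90 days).

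Among Na,K-ATPase subunits, other Fxyd genes and transcription factors known from kidney tubules, 11 of 19 were tested and 1 was called, Esrrg, an orphan nuclear receptor. It averaged 105, 155 and 143 CPM on the 3 days, a rise of 0.56 ± 0.12 (adjusted p = 0.0192) and 0.44 ± 0.12 (adjusted p = 0.0410) on the log2 scale. Both calls were lost without 30-day library 1 or 2 or 60-day library 2. The earlier one was also lost without 60-day library 3 and with library size scaling alone, and the later one without 30-day library 3 or 90-day library 2 or 3. The beta subunit Atp1b1 (1000, 976 and 910 CPM on average, adjusted p = 0.637 from 30 to 90 days) was not called. The medians of the list were -0.17 from 30 to 60 days and -0.11 from 30 to 90 days.

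Of 11 other aquaporins 4 were tested. Aqp5 was called lower from 30 to 90 days (522, 461 and 452 CPM at 30 days against 329, 301 and 337 CPM at 90 days, log2 fold change -0.57 ± 0.12, adjusted p = 0.0113), with no overlap between these groups. The call was lost with library size scaling alone (adjusted p = 0.208) and without 30-day library 1 or 90-day library 2. Aqp1, the water channel of small vessels, was at 8.79, 9.69 and 10.5 CPM on average and was not called (adjusted p = 0.602). DESeq2 also called Aqp5 from 30 to 60 days. The list's median log2 fold change from 30 to 90 days was -0.13.

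The other potassium channel genes (symbols beginning with Kcn) numbered 85, of which 38 were tested. From 30 to 60 days 1 was called, Kcnj16, and from 30 to 90 days 2, Kcnj16 higher and Kcnn4 lower. The medians were -0.06 and 0.25. Kcnj16, an inward rectifier that partners Kcnj10 in ion-transporting epithelia, measured 24.2, 28.5 and 23.7 CPM at 30 days, 38.3, 43.9 and 42.8 CPM at 60 days and 38.7, 44.6 and 43.5 CPM at 90 days. Its groups stepped up between 30 and 60 days without overlap and overlapped between 60 and 90 days. It rose by 0.71 ± 0.11 (adjusted p = 0.00212) and 0.73 ± 0.11 (adjusted p = 0.00100), and every alternative kept both calls.

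Kcnn4, the calcium-gated potassium channel of acinar cells, fell from 450 through 352 to 325 CPM on average (log2 fold change -0.47 ± 0.13 from 30 to 90 days, adjusted p = 0.0419), a call lost with library size scaling alone (adjusted p = 0.374) and without any 1 of the 30-day libraries, 60-day library 2 or 90-day library 2 or 3. Kcns1, like Kcns3 a silent subunit, measured 3.19, 2.08 and 2.90 CPM at 30 days, 5.35, 4.07 and 2.96 CPM at 60 days and 1.85, 1.79 and 1.20 CPM at 90 days. It passed the test for any difference among days (adjusted p = 0.0354) and no pairwise test (adjusted p = 0.0587 from 60 to 90 days). Kcnma1, the large-conductance channel through which ducts secrete potassium, was at 65.2, 51.8 and 45.2 CPM on average and was not called by edgeR (adjusted p = 0.114 from 30 to 90 days) but was called by DESeq2 in that comparison, as was Kcnt1, named here after its call was seen. Kcne3, the Kcnq1 partner of secretory epithelia, was at 0.485, 0.604 and 1.01 CPM on average and was not called by either tool (edgeR adjusted p = 0.327).

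**Figure D4:**
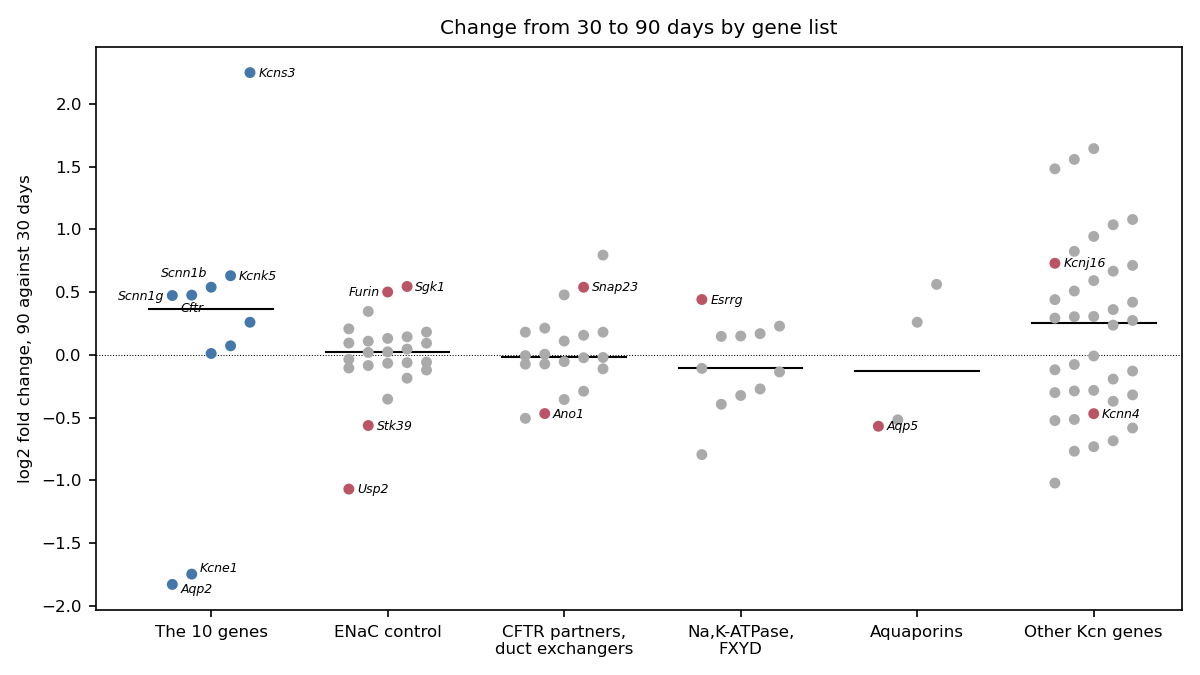
Log2 fold change from 30 to 90 days (y axis) of each tested gene in the 10 genes (blue) and in 5 lists of related genes (red, adjusted p below 0.05; grey, not called), with the median of each list as a black line. In the lists of related genes 10 of 97 tested genes are red, 5 above and 5 below 0, where 3.57% of all genes tested were called.

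From 60 to 90 days 0 of the 97 tested genes of these 5 lists passed edgeR's quasi-likelihood test. An unadjusted p under 0.05 was reached by 4 of the ENaC regulators, 3 of the Cftr list, 2 of the pump list, 0 of the aquaporins and 5 of the Kcn genes, together 14 of 97 (14.4%), beside 10.8% of all genes tested. DESeq2 called 2 of them from 60 to 90 days, Usp2 and Kcns1.

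Markers of several cell types differed over the same days. The granular duct markers (20 listed, 19 tested, none at 0 over all 9 libraries, although the untested Cst10 had 0 counts at 90 days) summed to 24840 to 35840 CPM at 30 days, 58320 to 71680 CPM at 60 days and 50770 to 75320 CPM at 90 days, and 14 of the 19 were called higher at 60 days and 15 at 90 days than at 30 days. Klk1, the largest single part of these sums (19190, 22430 and 19590 CPM on average), was not called, nor was Bsg (157.4, 157.9 and 157.7 CPM). The called markers stepped up between 30 and 60 days, with no called change from 60 to 90 days. This step coincides with those of Scnn1b, Cftr, Kcns3 and Kcnj16, and its part in their values was not tested. Acinar markers (16 listed, 15 tested, none at 0), of which Aqp5, Kcnn4 and Ano1 are also in the lists above, summed to 486000 to 687600 CPM at 30 days, 391300 to 568500 CPM at 60 days and 330800 to 479000 CPM at 90 days, with 4 called lower and 1 higher from 30 to 90 days. Mucl2 alone made up most of this sum (427400, 377300 and 318300 CPM on average), and some members had the other direction, such as Bpifa2 (43.1, 104 and 233 CPM, not called). The part of the acinar markers in the lower values of Aqp2 and Kcne1 was not tested.

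The markers of striated and intercalated ducts (17 listed and tested, none at 0) summed to 1976 to 2005 CPM at 30 days, 2238 to 2288 CPM at 60 days and 2258 to 2406 CPM at 90 days, with 0 called at 60 days and 3 called higher at 90 days (Ckb, Wfdc2, Esp4). Tfcp2l1 was the largest single part of these sums (628, 801 and 799 CPM on average). From 30 to 60 days 12 of the 17 were higher in value, with a median log2 fold change of 0.05. The step in these sums is smaller than that of Kcns3 or Kcnk5, and its part in the ENaC and Cftr values was not tested. Ionocyte markers (13 listed, 12 tested, none at 0), from a rare ductal cell known for Cftr, summed to 249 to 281, 258 to 284 and 282 to 306 CPM, and 1 was called higher at 90 days (Atp6v1g3). From 30 to 60 days 7 of the 12 tested were higher and 5 lower, with a median log2 fold change of 0.04, and their part in the Cftr values was not tested.

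Basal duct markers (8 listed and tested, none at 0) summed to 241 to 289, 270 to 311 and 304 to 359 CPM. At 90 days 8 of 8 had a higher value than at 30 days (median log2 fold change 0.39), and 1 was called (Trp63). Myoepithelial markers (7 listed, 6 tested) summed to 293 to 409, 444 to 488 and 402 to 557 CPM, with 6 of 6 higher in value at 90 days (median 0.44) and 1 called (Actg2). Erythroid markers (5 listed and tested) summed to 43.9 to 84.4, 43.2 to 72.6 and 74.4 to 229 CPM, with 5 of 5 higher in value at 90 days (median 1.02) and 0 called. Leukocyte markers (8 listed, 7 tested) summed to 310 to 500, 382 to 427 and 438 to 781 CPM, with 5 of 7 higher in value at 90 days (median 0.36) and 0 called. The part of these cells in the values of the 10 genes was not tested.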

How the data were processed

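A total of 9 bulk RNA-seq libraries from irradiated submandibular glands, 3 for each of 30, 60 and 90 days, were compared. The authors deposited raw read counts per gene as whole numbers for 54532 Ensembl identifiers. Per the submitters' processing notes, fastp, STAR, featureCounts and mm10 were used, while versions, annotation and strand setting are not given in the sources used here. A kit for mRNA was used on DNase-treated total RNA, per the labels' protocols. Columns were matched to samples by day and sample number, and 3 columns that match no sample listed here were not used. Symbols were found for 54409 identifiers, and positions come from GENCODE M21 (GRCm38, the build also called mm10), looked up by identifier.

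At least 1 count was present for 27001 genes. Genes passing filterByExpr (minimum count 10) in edgeR 4.0.16 numbered 15224. They were scaled by TMM and fitted over all 9 libraries with a term per day, and days were compared by edgeR's quasi-likelihood F test (robust fit), with p-values adjusted after Benjamini and Hochberg (threshold 0.05). SEs come from the same fit. The test was also run on simulated counts with 200 changed genes and the same spread for every gene. There 85% of the changed genes were called from 30 to 90 days, and 2.3% of the calls were false. Real genes differ in spread, so these shares do not measure the errors of the calls reported here. CPM per kb divides CPM by the union of a gene's exons. Software was R 4.3.3, limma 3.58.1 and DESeq2 1.42.0.

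The 10 genes and all lists were chosen with earlier results of these data known. Named were the 10 genes, list genes with adjusted p below 0.05 in any comparison (at most 6 a list), 15 genes fixed by name where they passed the filter, the genes most alike in pattern, and overlapping or adjoining genes. The 16 alternatives for each pair of days were DESeq2's size factors, library size alone, DESeq2, no filter, at least 10 counts in every library, each of the 9 libraries left out, a replicate block, and the 6 libraries of the comparison alone. Results that name items withheld from this text are not reported here.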

Additional observations from a re-analysis of the deposited data

How the results depend on the processing

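The number of genes called depended on single libraries. Leaving out one library at a time gave 73 to 244 genes from 30 to 60 days (238 with all), 16 to 103 from 60 to 90 days (39), 184 to 703 from 30 to 90 days (544) and 220 to 683 for any difference (501). Among the other genes of the lists it gave 2 to 6 (4 with all), 0 to 2 (0), 3 to 12 (10) and 3 to 11 (10). The lowest gene counts came without 60-day library 2, 90-day library 2 and 30-day library 1. With no filter, counts were 459, 354, 1045 and 1194 genes, and 8, 5, 16 and 17 list genes. Library size alone gave 90 genes from 30 to 60 days and 277 for any difference, with 2 and 5 list genes, and shifted the split: 79 higher and 11 lower beside 173 and 65 from 30 to 60 days, 19 and 9 beside 14 and 25 from 60 to 90 days, and 406 and 34 beside 275 and 269 from 30 to 90 days. DESeq2 called 141 genes from 60 to 90 days and 789 for any difference, with 7 list genes from 30 to 60 days and 2 from 60 to 90 days. The fit of 6 libraries called 1 list gene from 60 to 90 days. The cause was not tested.

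Whether the sample numbers pair the samples is not settled here. Deviations from the day means of same-numbered libraries correlated at -0.060 to 0.191, and 4 of 9 libraries matched their own number best. Low correlations over all genes cannot exclude a pairing. With a replicate block 270, 92 and 717 genes were called from 30 to 60, 60 to 90 and 30 to 90 days and 609 for any difference, with 2 list genes from 60 to 90 days.

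The direction of the 10 genes from 30 to 90 days was kept in every alternative except for Fxyd2. From 60 to 90 days Cftr kept its sign in 13, and Scnn1b and Aqp2 in 15, of 16. Aqp2, Kcne1 and the 30-day Kcns3 values rest on few counts, which limits their precision.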

Other observations

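Levels of the potassium channel genes were ranked as background to the 4 Kcn genes among the 10, and the genes named here beyond those of the report were chosen after their levels were seen. Per exon length and averaged over the 9 libraries, Kcnn4 ranked first of 89 Kcn genes at 73.4 CPM per kb, followed by Kcnk1, a background channel, at 21.9 CPM per kb. Kcnk5 and Kcnj16 came next. By day means Kcnj16 ranked 3 and Kcnk5 ranked 4 at 30 days (6.47 and 6.35 CPM per kb) and at 90 days (10.7 and 9.86). At 60 days Kcnk5 ranked 3 (12.95 against 10.6). The libraries of Kcnj16 and Kcnk5 overlapped at 30 and at 90 days (SD of Kcnk5 1.3 and 0.49), so their order on those days is not read as a difference. Kcnq1 ranked 5 on each day, at 5.80, 6.68 and 6.95 CPM per kb. Kcnj15, another inward rectifier, was at 3.59 CPM per kb, and Kcnma1 was at 3.18. Kcns3 ranked 18, 13 and 11 at 30, 60 and 90 days, and Kcne1 ranked 15, 19 and 25. Kcne2, a further partner of Kcnq1, had 7 counts. A total of 11 Kcn genes had 0 counts in every library.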
